A study of Mus musculus with 17 samples.

Results

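Heat shock proteins are the molecular chaperones that bind unfolded proteins, and 10 of their genes were followed through stem cells of mouse skin under fasting. The genes were chosen by name, as 10 of the 35674 gene symbols in the tables: Hspa1a, Hspa1b, Hspa8, Hsph1, Dnajb1, Dnaja1, Hsp90aa1, Hsp90ab1, Hspb1 and Hspd1. Messenger RNA was measured in 17 libraries of skin cells, purified by flow sorting, of mice labelled WT, with no allele, transgene or age given. Hair follicle stem cells (HFSCs), which live in the bulge of the follicle, were taken from mice fed ad libitum (3 libraries), fasted for 24 h (3 libraries) or fasted for 48 h (3 libraries). Epidermal stem cells (EpiSCs), which renew the epidermis between follicles, were taken with food ad libitum (2 libraries). In a long-term experiment HFSCs were taken after 6 months of alternate-day fasting (ADF), on the day after a fast (2 libraries), and from mice fed ad libitum over those 6 months (2 libraries). A last group of HFSCs came from the 2nd telogen, a resting phase of the hair cycle, with a treatment given as control (2 libraries). The sort markers and the number of mice behind a library are not stated in the labels. The p-values thus rest on the spread between libraries, which may be technical, and on spread that the test borrows from other genes.

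In cells, chaperones of the HSP70 class hold exposed stretches of unfolded protein and release them in a cycle driven by ATP. J-domain proteins such as Dnajb1 and Dnaja1 hand them the substrate and start the cycle, Hsph1 resets it by exchanging the nucleotide, and HSP90 chaperones complete the folding of receptors and kinases. Small heat shock proteins such as Hspb1 keep unfolded protein from clumping without ATP and also act on the cytoskeleton, while Hspd1 forms the folding chamber of mitochondria with its lid Hspe1. The heat shock factor HSF1 switches on the inducible members when unfolded protein builds up. It binds repeats of the unit NGAAN, where N is any base, placed head to head or tail to tail in their promoters. Hspa8 and Hsp90ab1 are the forms that most cells make all the time, and Hspa1a, Hspa1b and Hsp90aa1 are the inducible forms.

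The promoters of Hspa1a, Hspa1b and Hspb1 are shown because Hspa1a and Hspb1 were the members called after a 48 h fast, and Hspa1b is a near copy of Hspa1a. The 250 bases before each annotated start were read from RefSeq on GRCm38.p6. They lie at chr17:34972157-34972406 on the minus strand for Hspa1a, at chr17:34959239-34959488 on the minus strand for Hspa1b and at chr5:135887669-135887918 on the plus strand for Hspb1. Each is written 5′ to 3′, and capitals mark matches to GAANNTTC or TTCNNGAA, which are paired units of the heat shock element and read alike on both strands.
Hspa1a: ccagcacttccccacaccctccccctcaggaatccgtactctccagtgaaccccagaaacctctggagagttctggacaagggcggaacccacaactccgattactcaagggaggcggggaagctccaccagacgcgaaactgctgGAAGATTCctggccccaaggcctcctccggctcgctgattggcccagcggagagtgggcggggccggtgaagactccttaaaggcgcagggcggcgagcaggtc
Hspa1b: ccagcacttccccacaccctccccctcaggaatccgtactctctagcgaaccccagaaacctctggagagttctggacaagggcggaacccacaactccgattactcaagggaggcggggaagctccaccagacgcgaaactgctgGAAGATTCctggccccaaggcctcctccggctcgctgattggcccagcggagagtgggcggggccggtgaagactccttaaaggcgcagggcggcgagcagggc
Hspb1: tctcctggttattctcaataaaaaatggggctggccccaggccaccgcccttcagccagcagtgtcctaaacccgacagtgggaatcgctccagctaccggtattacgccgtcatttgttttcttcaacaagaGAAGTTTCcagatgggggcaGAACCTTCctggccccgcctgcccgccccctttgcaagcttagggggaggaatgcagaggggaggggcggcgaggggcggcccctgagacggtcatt
The Hspa1a and Hspa1b windows were the same at 296 of 300 bases when the 50 bases after the start are added. The substitutions from Hspa1a to Hspa1b are C44T, T47C, T249G and C276T, counted from 1 at the 5′ end of the window. Their 1 match starts at position -104 from the start site in both genes, and the 2 matches of Hspb1 start at -117 and -97. A run of 3 units, written GAANNTTCNNGAA or TTCNNGAANNTTC, was present in 1 window of Hspd1, at chr1:55088059-55088076 on the minus strand, where overlapping matches make a run of 18 bases that starts at -144.
Hspd1: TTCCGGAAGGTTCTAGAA
The table of promoters held 12 windows for 7 of the 10 genes, and Hspa8, Hsp90aa1 and Hsp90ab1 were not among them. A paired match was found for 6 of these 7 genes (Hspa1a, Hspa1b, Hspb1, Hspd1, Hsph1 and Dnaja1, not Dnajb1), against 16.97% of all 27025 genes with a window. The longer run, of which the paired matches are parts, was found for 2 of the 7 (Hspd1 and Hsph1), against 0.662% of all genes. A gene with more windows has more places for a match. Counted by window, 7 of the 12 held a paired match, against 15.06% of all 32851 windows. The longer run was in 3 of the 12, against 0.603%. Hspa1a and Hspa1b are near copies and the Hsph1 windows overlap, so these matches are not all separate. In Hsph1 the longer run starts after the annotated start site, at position 37 or 16 depending on the window. A match describes the letters of a window and does not show that a factor binds there.

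The libraries held 10422 to 12087 genes at 1 TPM or more, where TPM is the share of transcripts assigned to a gene after correction for its length, so that levels can be compared between genes. Depth cannot be read from these values. The mitochondrial genome supplied 30.7% ± 4.56 (SD, n = 3) of all TPM in fed HFSCs, 27.5% ± 8.73 after 24 h and 10.02% ± 2.88 after 48 h, against 3.22% to 3.88% as the mean of each other group. Each library sums to a fixed total. Over all tested genes the log2 fold changes had a median of 0.42 between 48 h and fed, 0.47 between 48 h and 24 h and 0.50 between EpiSCs and HFSCs. Values after median-ratio scaling, which brings this median near 0, are therefore given beside the deposited ones. Of 10 HFSC markers all 10 averaged at least 1 TPM in each HFSC group, led by the keratin gene Krt15, while EpiSCs had 4, with Krt15 again leading and Lgr5 and Tbx1 at 0. Of 10 EpiSC markers all 10 did so in every group, with a summed level of 42756 to 45773 TPM in EpiSCs and 5151 to 15616 TPM in HFSC libraries. In the short experiment the endothelial, adipocyte and muscle markers each summed to at most 2.00 TPM in a library. Other sets summed higher in its HFSC libraries, up to 33.13 TPM for fibroblast, 39.98 for erythroid, 25.9 for immune and 17.65 for melanocyte genes. Schwann cell markers summed to 0.781 to 5.26 TPM in fed HFSCs, 5.33 to 13.51 after 24 h and 8.09 to 12.06 after 48 h. In EpiSCs these Schwann cell markers summed to 16.90 to 18.57 TPM. The part of such cells in the chaperone values was not tested.

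The 10 genes together took 0.503% ± 0.0286 of the total in fed HFSCs (SD, n = 3), 0.776% ± 0.180 after 24 h and 0.877% ± 0.0737 after 48 h. They took 0.764% ± 0.0108 in EpiSCs, 1.02% ± 0.0329 after 6 months of ADF, 1.09% ± 0.246 in the matching fed mice and 1.58% ± 0.2097 in telogen (n = 2 each). Taken without mitochondrial transcripts the means were 0.727% in fed HFSCs, 1.07% after 24 h, 0.974% after 48 h, 0.789% in EpiSCs, 1.06% with ADF, 1.13% in its fed controls and 1.64% in telogen. The order of the 24 h and 48 h groups thus turned with the denominator, and telogen was the highest under both. In bulk samples a smaller share of a cell type and less RNA per cell cannot be told apart.

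Hspb1 was the most abundant of the 10 in every group, from 39.1% of their sum in long-term fed HFSCs to 60.1% after 24 h of fasting. In fed HFSCs the order by mean TPM ran from Hspb1 (2528) through Hspa8 (977), Hsp90aa1 (504), Hsp90ab1 (454), Dnajb1 (257), Hspa1a (154), Dnaja1 (57.9), Hspd1 (53.3) and Hspa1b (31.2) to Hsph1 (15.6). Neighbours whose libraries overlapped were Hsp90aa1 with Hsp90ab1 and Dnaja1 with Hspd1. Dnajb1 moved up to 2nd place in EpiSCs (1503 TPM), where it overlapped with Hspa8, and Hspa1a moved up to 4th place after 48 h of fasting. Across the 7 groups the highest mean exceeded the lowest by 7.78-fold for Hspa1b, 6.14-fold for Hspa1a and 5.84-fold for Dnajb1, and by 1.96-fold for Hsp90ab1, the narrowest range. How each of the 3 tables was made is not stated, so these orders across tables are descriptions. Tests stayed within a table, although the telogen table repeats fed libraries of the short experiment, whose trimming differed from that of telogen.

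**Figure D1:**
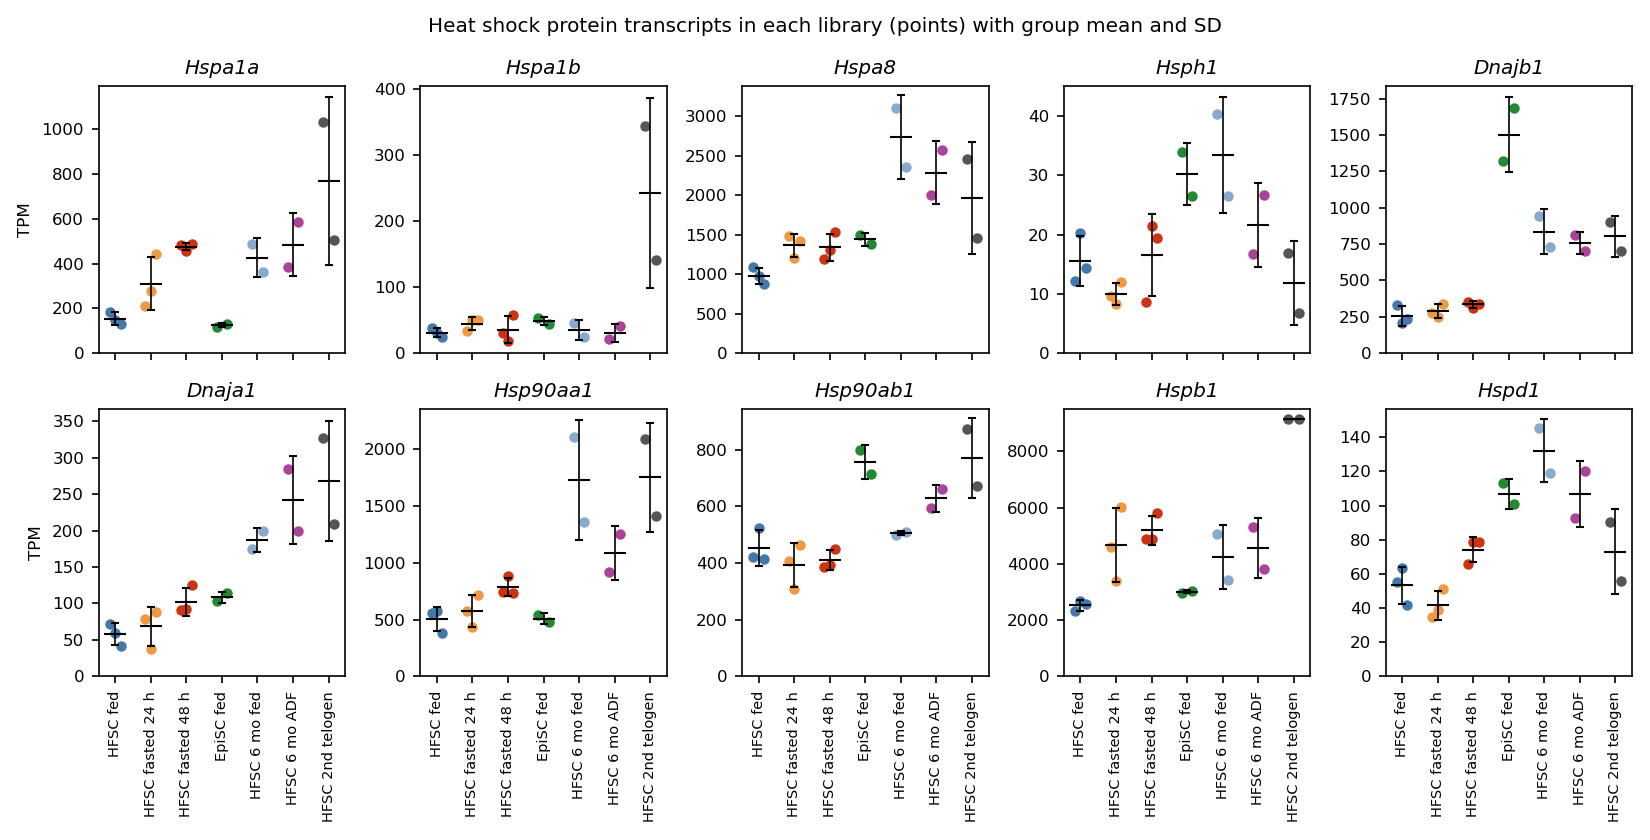
Each panel plots 1 gene in TPM (linear axis from 0), with a point for each library, a bar for the group mean and whiskers for the SD (n = 3 for HFSC fed and fasted groups, n = 2 for the others). Hspa1a is higher in all fasted than in all fed HFSC libraries of the short experiment, Dnajb1 is highest in EpiSCs, and Hspa1b and Hspb1 are highest in telogen.

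The inducible HSP70 gene Hspa1a was the member that changed most clearly with a short fast. It measured 185, 149 and 129 TPM in the fed HFSC libraries, 210.4, 278 and 441 TPM after 24 h and 482, 457 and 485 TPM after 48 h. All 3 libraries at each fasting time lay above all fed libraries, and the 48 h values lay close together. The log2 fold change at 48 h was 1.63 (SE 0.256, 95% interval 1.09 to 2.17, limma adjusted p = 0.000929) and 1.13 after median-ratio scaling (adjusted p = 0.0194). At 24 h it was 0.95 (SE 0.256, adjusted p = 0.0596), and the 48 h level was 0.68 above that of 24 h (adjusted p = 0.178, 0.19 after scaling). The call at 48 h was made under 18 of 18 alternative settings, with log2 fold changes from 1.13 to 1.77.

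Hspa1b, a near copy of Hspa1a on the same chromosome, stood at a lower level. It measured 38.6, 30.3 and 24.6 TPM in fed libraries, 34.2, 50.8 and 50.01 TPM after 24 h and 30.9, 18.9 and 57.9 TPM after 48 h. The groups overlapped at both times, and Hspa1b was not called (0.52, adjusted p = 0.517 at 24 h, and 0.08, adjusted p = 0.905 at 48 h, where scaling turned it to -0.40). Each gene has 1 exon, and 63.8% of the 31-base words of the Hspa1a transcript also occur in Hspa1b, with 0% of those in its 3′ end, so the split of reads between the copies is uncertain. Summed, the copies rose by 1.47 at 48 h (SE 0.251, adjusted p = 0.00158), and by 0.98 after scaling (adjusted p = 0.0384). At 24 h the sum was 0.89 above fed (adjusted p = 0.0728). Hspa1a lies at chr17:34969190-34972156 and Hspa1b at chr17:34956436-34959238, both on the minus strand of GRCm38.

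Hspa8, the constitutive HSP70, measured 1084, 974 and 873 TPM in fed libraries, 1481, 1198 and 1413 TPM after 24 h and 1195, 1299 and 1529.9 TPM after 48 h. Every fasted library lay above every fed one, yet the change was not called (0.48, adjusted p = 0.233 at 24 h, and 0.45, adjusted p = 0.140 at 48 h, or -0.04 after scaling). With the fit held to the 48 h and fed libraries alone, Hspa8 passed (0.45, adjusted p = 0.0441). Hsph1, the HSP110 exchange factor, measured 12.1, 20.3 and 14.4 TPM in fed libraries, 9.60, 8.28 and 12.0 TPM after 24 h and 8.65, 21.5 and 19.4 TPM after 48 h. It was lower in all 24 h libraries than in all fed ones, but not called (-0.58, SE 0.392, adjusted p = 0.493), and at 48 h the groups overlapped (0.02, or -0.45 after scaling).

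The J-domain genes were not called in the short fast. Dnajb1, the inducible partner of HSP70, measured 334, 205 and 232 TPM in fed libraries, 277, 249 and 341 TPM after 24 h and 355, 311 and 341 TPM after 48 h (0.41, adjusted p = 0.229, or -0.08 after scaling). These groups overlapped at both times. Dnaja1, its counterpart in protein import and folding, measured 72.0, 60.0 and 41.7 TPM in fed libraries, 78.6, 38.2 and 88.4 TPM after 24 h and 90.6, 92.2 and 125 TPM after 48 h. Its 48 h libraries were all above the fed ones, 0.83 higher on the log2 scale (SE 0.318, adjusted p = 0.0873, 0.34 after scaling), and it passed when 24 h library 2 was left out (adjusted p = 0.0295) or when the fit held the compared groups alone (0.0241).

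The 2 cytosolic HSP90 genes were not called at either time on the deposited scale. Hsp90aa1, the inducible form, measured 554, 579 and 379 TPM in fed libraries, 577, 439 and 717 TPM after 24 h and 744, 879.6 and 732 TPM after 48 h. Hsp90ab1, the constitutive form, measured 423, 525 and 413 TPM, then 409, 309 and 463 TPM, then 387, 394 and 450.4 TPM in the same order. At 48 h Hsp90aa1 lay above all fed libraries without passing the test (0.66, SE 0.235, adjusted p = 0.0703, 0.16 after scaling), and Hsp90ab1 overlapped with them (-0.14, adjusted p = 0.696). After median-ratio scaling Hsp90ab1 fell by 0.63 on the log2 scale (adjusted p = 0.0303). Hsp90aa1 passed when 24 h library 1 (adjusted p = 0.0481) or 24 h library 2 (0.0420) was left out, and with the compared groups alone (0.0203).

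Hspb1, the small heat shock protein, measured 2321, 2686 and 2577 TPM in fed libraries, 4583, 3383 and 6018 TPM after 24 h and 4900.2, 4885 and 5797 TPM after 48 h. All fasted libraries were above all fed ones at both times. The log2 fold change was 1.04 at 48 h (SE 0.238, 95% interval 0.53 to 1.54, adjusted p = 0.00934) and 0.85 at 24 h (SE 0.238, adjusted p = 0.0719). The call at 48 h was lost after median-ratio scaling (0.54, adjusted p = 0.140) and when fed library 1 (0.98, adjusted p = 0.0555) or 48 h library 3 (0.96, adjusted p = 0.0546) was left out. At 24 h, the reverse held: Hspb1 passed after scaling (0.84, adjusted p = 0.0448) and without 24 h library 1 (0.0494) or 2 (1.06, 0.0235). Hspb1 lies at chr5:135887919-135889563 on the plus strand of GRCm38.

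Hspd1, the mitochondrial chaperonin, measured 55.0, 63.2 and 41.9 TPM in fed libraries, 34.8, 39.0 and 51.0 TPM after 24 h and 65.7, 78.4 and 78.4 TPM after 48 h. The 48 h libraries lay above all others, and the 24 h libraries overlapped with the fed ones. None of these differences was called: the value was -0.35 at 24 h (adjusted p = 0.540), 0.48 at 48 h against fed (adjusted p = 0.217, -0.0059 after scaling) and 0.83 at 48 h against 24 h (SE 0.259, adjusted p = 0.143).

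Counted together, 0 of the 10 genes passed at 24 h against fed, where 3.07% of all tested genes were called in either direction. After scaling 1 was called higher (Hspb1), where 2.68% of all genes were. The libraries did not overlap and were higher for 3 (Hspa1a, Hspa8 and Hspb1), against 7.77% of all genes, and lower for 1 (Hsph1), against 10.1%. Without 24 h library 1, 2 members passed, Hspa1a (1.19, adjusted p = 0.0117) and Hspb1, both higher. In that setting 482 of all 11529 tested genes were called, 132 of them higher. At 48 h against fed, 2 were called higher and 0 lower, with 13.3% of all genes called higher, so this count stood near the background. After scaling 1 was higher (Hspa1a) with 5.24% of all genes, and 1 was lower (Hsp90ab1) with 5.20%. The 48 h libraries were all above the fed ones for 6 members, against 35.5% of all genes. At 48 h against 24 h, 0 were called, with 0.0434% of all genes, and 4 were higher without overlap, against 25.3%. Without 24 h library 3, Hspa1a passed (0.97, adjusted p = 0.0454), where 345 of all 11507 tested genes were called. At an unadjusted p under 0.05, limma called 2 members at 48 h against 24 h (Hspa1a and Hspd1), where 21.3% of all genes passed, and 3 at 24 h against fed (Hspa1a, Hspa8 and Hspb1), where 17.1% did. The 24 h and 48 h comparisons share the fed libraries.

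**Figure D2:**
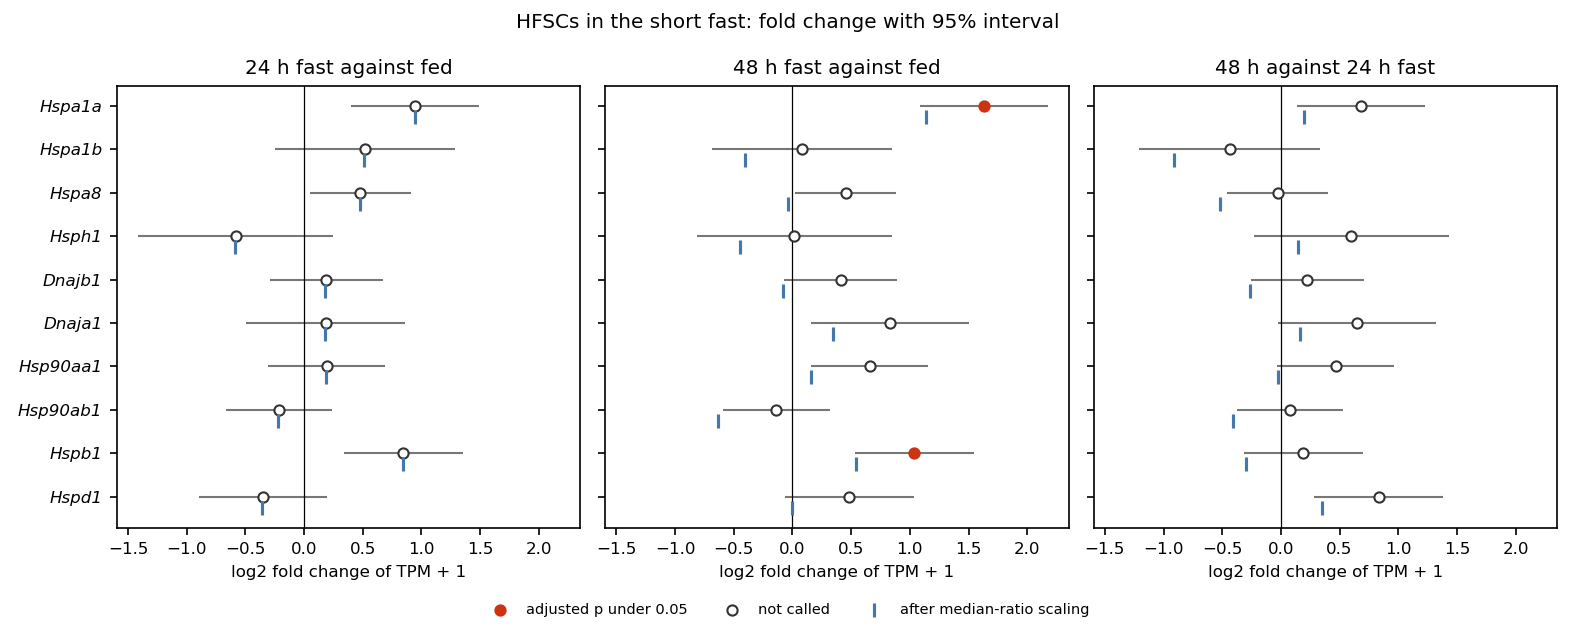
Each panel gives the log2 fold change of TPM + 1 (linear axis) for the 10 genes with its 95% interval from limma. Filled points passed an adjusted p under 0.05, open points did not, and blue ticks give the value after median-ratio scaling. Hspa1a and Hspb1 are filled at 48 h against fed, and the ticks of that panel and of 48 h against 24 h sit to the left of the points.

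Ratios between members of 1 library do not depend on its total. The log2 ratio of Hspa1a plus Hspa1b to Hspa8 was -2.40 ± 0.118 in fed HFSCs (SD, n = 3) and -1.38 ± 0.147 after 48 h, a difference of 1.02 with no overlap. After 24 h its libraries measured -2.59, -1.86 and -1.52 and overlapped with the fed ones. The ratio of Hsp90aa1 to Hsp90ab1 measured 0.39, 0.14 and -0.12 in fed libraries, 0.50, 0.50 and 0.63 after 24 h and 0.94, 1.16 and 0.70 after 48 h. Each later group lay above the earlier one, by 0.41 from fed to 24 h and by 0.39 from 24 h to 48 h. The ratio of Hspd1 to its lid Hspe1 was -1.18 ± 0.248 in fed HFSCs and -0.33 ± 0.223 after 48 h, 0.85 higher and without overlap. For these differences the exact two-sided permutation p was 0.1, which is the smallest that 3 libraries against 3 allow, and 0.218 after Benjamini-Hochberg adjustment over the 24 ratio comparisons. No ratio comparison could pass 0.05, and those with 2 libraries against 2 cannot go below 0.333.

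**Figure D3:**
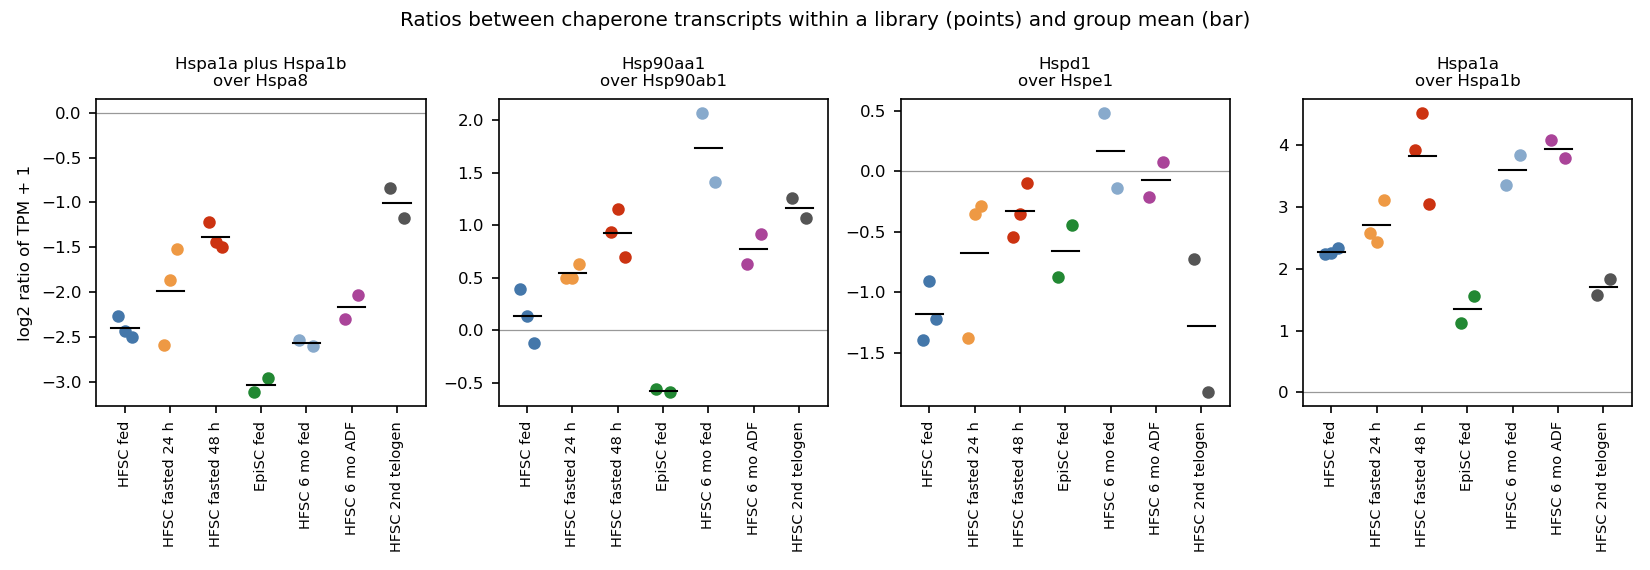
The log2 ratio of TPM + 1 between 2 members within a library is plotted by group, with a point for each library and a bar for the mean. The ratio of Hsp90aa1 to Hsp90ab1 lies lowest in EpiSCs (-0.56 and -0.59) and highest in long-term fed HFSCs (2.07 and 1.41).

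Beyond the 10 genes, few other chaperones were called at 24 h, where 3.07% of all genes were called in either direction. They were 1 of 31 J-domain genes, 1 of 2 HSP90 genes outside the cytosol, 1 of 5 small heat shock proteins and 2 of 10 heat-inducible genes. After scaling, with 4.91% of all genes called, the heat-inducible genes had 2 higher and 2 lower, and the other counts stayed. No gene was called among 7 HSP70 and HSP110 genes, 8 chaperonins and 24 co-chaperones. At 24 h, Hsp90b1, the HSP90 of the endoplasmic reticulum, fell from 103 ± 5.05 to 51.2 ± 5.62 TPM (-0.99, SE 0.223, adjusted p = 0.0256). The collagen chaperone gene Serpinh1 fell by 1.10 (adjusted p = 0.0363) and Creld2, another gene of the endoplasmic reticulum, by 1.06 (adjusted p = 0.0286). The J-domain gene Dnajb3 fell from 15.8 ± 5.51 to 3.60 ± 0.0745 TPM (-1.82, adjusted p = 0.0392). Hspb8, a small heat shock protein that works with Bag3, rose from 483 ± 127 to 1226 ± 409.7 TPM at 24 h (1.32, adjusted p = 0.0144) and reached 1493 ± 186 TPM at 48 h (1.65, adjusted p = 0.00104, 1.16 after scaling). Hspb8 passed at both times under both scalings.

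At 48 h against fed 13.3% of all genes were called higher, or 5.24% after scaling, and the counts of other chaperones are to be read against these shares. Of 24 co-chaperones 5 rose and 0 fell (2 and 0 after scaling), led by Fkbp5, an HSP90 partner of steroid receptors, from 24.1 ± 7.69 to 157 ± 84.9 TPM (2.54, SE 0.514, adjusted p = 0.00452), followed by Bag5 (1.32) and Bag4 (1.29), which release substrates from HSP70. Of 31 J-domain genes tested 6 rose and 0 fell (1 and 1 after scaling), led by Dnajc28 (1.68), Dnajc18 (1.61) and Dnaja4 (1.30). Of 7 other HSP70 and HSP110 genes 1 rose (Hspa4l, 1.49, not called after scaling), of 5 other small heat shock proteins 2 rose (Hspb8 and Hspb6, 1.60), and of 8 chaperonins 1 rose (Cct4, 0.85, 0.35 and not called after scaling). Of 10 other heat-inducible genes 5 rose and 1 fell (3 and 2 after scaling), among them Hmox1 (1.95), Dedd2 (1.66) and the autophagy receptor gene Sqstm1 (1.39). The medians were 0.46 for co-chaperones, 0.61 for J-domain genes, 1.04 for heat-inducible genes and 0.47 for the 10 members, beside 0.42 for all genes.

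No heat shock factor or regulator was called in the short fast, among 3 tested. Hsf1, the main heat shock factor, averaged 41.5 ± 2.79 TPM in fed HFSCs, 35.9 ± 4.02 after 24 h and 48.2 ± 6.18 after 48 h and was not called at either time (-0.21, adjusted p = 0.738, and 0.21, adjusted p = 0.605). Hsf2 stood at 1.99 ± 1.44, 3.04 ± 1.23 and 4.36 ± 2.39 TPM and was not called. Bag3 (0.72, adjusted p = 0.218) and Stip1, which couples HSP70 to HSP90 (0.34, adjusted p = 0.459), were not called at 48 h, nor was Hspe1 (-0.36, adjusted p = 0.360), which fell by 0.85 after scaling (adjusted p = 0.0363). Of all tested genes 1.47% were called higher at 24 h and 13.3% at 48 h, or 2.68% and 5.24% after scaling. Beside these shares stand 24 immediate early genes, a class that cell isolation can also switch on. Of them 5 rose at 24 h and 17 at 48 h (5 and 12 after scaling), and 0 fell. Their summed level ran from 11347 to 16513 TPM in fed libraries, 20865 to 33004 TPM after 24 h and 33921 to 44277 TPM after 48 h, with no overlap between the 3 groups. Markers of 6 immune genes summed to 11.6 to 15.6 TPM in fed libraries, 19.4 to 25.9 TPM after 24 h and 13.5 to 24.0 TPM after 48 h, with Cd3e at 0 throughout. The part of these genes in the Hspa1a result was not tested.

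Genes with the pattern most like a member were ranked over the 9 short-experiment HFSC libraries by the root mean square difference of centred log2 values, among 11532 genes. For Hspa1a the nearest were Btg2 (0.16), Bms1 (0.19) and Dusp1 (0.19), beside a spread of 0.73 for Hspa1a itself, and Btg2 and Dusp1 are immediate early genes. Btg2 was called at 24 h (1.10, adjusted p = 0.0290). For Hspa8 the nearest were Gng12, Terf2 and Eif3l (0.11 to 0.15), and for Hspb1 Eif4b, Gsto1 and Igf2r (0.14 to 0.16). For Hsp90aa1 they were Seh1l (0.062), Cbx3 and Terf1, for Hsp90ab1 Atp5b, Sirt5 and D10Wsu102e (0.12 to 0.13), and for Hspd1 Hagh, Unc119b and Nolc1 (0.12 each). The member nearest to Hspa1a was Hspb1 (0.38), at rank 184 of the 11532 genes, while Hspa1b stood at rank 5857.

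Dnajb1 was the member with the largest difference between EpiSCs and fed HFSCs. It measured 1322 and 1684 TPM in EpiSCs and 334, 205 and 232 TPM in fed HFSCs, with no overlap. The log2 fold change was 2.56 (SE 0.221, 95% interval 2.06 to 3.07, adjusted p = 9.3e-05) and 2.03 after scaling (adjusted p = 0.00193), and it passed in 14 of 14 alternative settings. Dnajb1 lies at chr8:83608193-83612653 on the plus strand of GRCm38.

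Hspa1a measured 118 and 132 TPM in EpiSCs, against 129 to 185 TPM in HFSCs. The groups overlapped and the value was -0.29 (adjusted p = 0.268), but after scaling Hspa1a fell by 0.82 on the log2 scale (adjusted p = 0.0329). Summed with Hspa1b, the copies were at -0.08 (limma adjusted p = 0.771), and at -0.61 after scaling (adjusted p = 0.0871). The lower call was thus made for Hspa1a kept apart and not for the sum. Hsp90ab1 was higher, at 799 and 715 TPM (0.74, SE 0.156, adjusted p = 0.00666), while Hsp90aa1 at 543 and 475 TPM overlapped with HFSCs (0.03, adjusted p = 0.902, or -0.50 after scaling). The ratio of Hsp90aa1 to Hsp90ab1 was -0.57 ± 0.0225 in EpiSCs (n = 2), 0.71 below HFSCs on the log2 scale without overlap (exact two-sided permutation p = 0.1, the smallest that 2 against 3 allow, adjusted 0.218). That of Hspa1a plus Hspa1b to Hspa8 was 0.64 lower, also without overlap.

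The other members that passed in EpiSCs had log2 fold changes from 0.56 to 1.01, beside a median of 0.50 for all genes. Hspd1 measured 113 and 101 TPM (1.01, adjusted p = 0.00907), Hsph1 33.9 and 26.5 TPM (0.93, adjusted p = 0.0413), Dnaja1 103 and 114 TPM (0.93, adjusted p = 0.0199) and Hspa8 1497 and 1379 TPM (0.56, adjusted p = 0.0135). Each lay above all fed HFSC libraries. Hspb1 at 2977 and 3043 TPM (0.25, adjusted p = 0.124, or -0.28 after scaling) and Hspa1b at 53.5 and 44.1 TPM (0.65, adjusted p = 0.0788) were not called. In all, 6 of 10 members were called higher and 0 lower, where 31.5% of all tested genes were called higher, and 8 were higher without overlap, against 50.5%. After median-ratio scaling 1 was higher (Dnajb1), with 16.8% of all genes, and 1 was lower (Hspa1a), with 15.6%. Hspa8, Hsph1, Dnaja1, Hsp90ab1 and Hspd1 also lost their calls without EpiSC library 1 (adjusted p 0.103 to 0.3) or 2 (0.0558 to 0.179), Hsph1 further without fed library 1 (0.0771) or 3 (0.0895), and Hspa1b passed without fed library 1 (0.0396).

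Among other chaperones Cryab, a small heat shock protein related to Hspb1, fell from 297 ± 49.0 TPM in HFSCs to 8.78 ± 0.393 TPM in EpiSCs (-4.92, SE 0.21, adjusted p = 2.95e-06, -5.41 after scaling), and Hspb2 fell by 2.12. Hspa9, the mitochondrial HSP70 that works with Hspd1, rose from 30.6 ± 10.03 to 104 ± 3.28 TPM (1.78, 1.26 after scaling), and Trap1, the mitochondrial HSP90, by 1.11. Of 8 cytosolic and mitochondrial chaperonin genes 7 rose, with Cct5 at 0.74, Tcp1 at 0.73 and Cct2 at 0.72, and 0 were called after scaling. The counts that follow stand beside 31.5% of all genes called higher in EpiSCs, or 16.8% after scaling. Of 24 co-chaperones 9 rose and 0 fell (4 and 4 after scaling), led by Unc45a (1.79), Stip1 (1.35) and Ptges3 (1.28), which serve HSP90. Of 29 J-domain genes 9 rose and 0 fell (3 and 3 after scaling). Hsf2 rose from 1.99 ± 1.44 to 10.5 ± 1.54 TPM (2.08, adjusted p = 0.0145), Hsf1 by 0.58 (adjusted p = 0.0484, 0.06 and not called after scaling), and Hsbp1, a binding partner of HSF1, fell by 0.45. Immediate early genes had 22 of 24 higher and 1 lower (19 and 1 after scaling), led by Cebpb (6.83) and Fosl1 (5.90). They summed to between 48440.4 and 58150.3 TPM, above every fed HFSC library.

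In 2nd-telogen HFSCs most of the 10 genes were higher than in fed HFSCs of the short experiment. The 2 telogen libraries are named here by their column numbers, 2 and 3, since their labels do not say which is which, and they were set against fed libraries 2 and 3, which stand in the same table. The columns of these fed libraries carry the prefix ana1 there, which the labels do not explain, and those of the telogen libraries the prefix telo.2nd. The hair cycle stage of the fed mice is not stated otherwise, so stage and other differences between these groups cannot be told apart. Hspa1b measured 345 and 141 TPM in telogen against 30.3 and 24.6 TPM, 2.97 higher on the log2 scale (SE 0.389, adjusted p = 4.9e-06). Such small limma p-values lean on the spread of other genes. With no filter on low values the fold change of Hspa1b was the same and its adjusted p was 0.192. Hspa1a measured 1032 and 505 TPM against 149 and 129 TPM (2.37, SE 0.325, adjusted p = 9.31e-06). The summed copies rose by 2.50 (adjusted p = 4.19e-06), so the direction does not rest on the split of their reads.

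The partners of HSP70 and the inducible HSP90 were higher as well. Dnaja1 measured 327 and 209.5 TPM against 60.0 and 41.7 TPM (2.36, SE 0.344, adjusted p = 2.34e-05), and Dnajb1 903 and 702 TPM against 205 and 232 TPM (1.86, SE 0.291, adjusted p = 6.11e-05). Hsp90aa1 measured 2089 and 1412 TPM against 579 and 379 TPM (1.87, SE 0.299, adjusted p = 8.4e-05). Hspb1 measured 9148 and 9156 TPM against 2686 and 2577 TPM (1.80, SE 0.281, adjusted p = 5.99e-05), its highest values in the series. In each of these genes the telogen libraries lay above the fed ones, and column 2 was above column 3 in all but Hspb1.

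The constitutive and mitochondrial members moved less, and so did the exchange factor Hsph1. Hspa8 measured 2459 and 1456 TPM (1.04, adjusted p = 0.0302) against 974 and 873 TPM in the fed libraries. Hsp90ab1 at 871 and 671 TPM did not overlap with the fed values of 525 and 413 TPM but was not called (0.71, adjusted p = 0.179). Hspd1 at 90.5 and 55.6 TPM (0.46, adjusted p = 0.646) and Hsph1 at 16.9 and 6.78 TPM (-0.61, adjusted p = 0.670) overlapped with the fed libraries. The log2 ratio of Hspa1a plus Hspa1b to Hspa8 was 1.46 higher in telogen and that of Hsp90aa1 to Hsp90ab1 1.16 higher, both without overlap (exact two-sided permutation p = 0.333 each, adjusted 0.421).

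In this comparison 7 of 10 members were called higher and 0 lower, against 5.01% of all tested genes called higher, with a median of 1.83 for the members beside 0.03 for all genes. The libraries did not overlap and were higher for 8 members, against 24.4% of all genes. After median-ratio scaling 5 members were called (Hspa1a, Hspa1b, Dnaja1, Dnajb1 and Hsp90aa1), against 5.55% of all genes, with Hspa8 at an adjusted p of 0.245 and Hspb1 at 0.108. Without telogen column 2, 1 member passed (Hspb1, adjusted p = 0.0281), with the others called between 0.0851 and 0.220. Without column 3 the count was 4 (Hsp90aa1 0.0724, Dnaja1 0.0617, Hspa8 0.0643), and without fed library 3 also 4 (Hsp90aa1 0.0600, Hspb1 0.105, Hspa8 0.586). Without fed library 2 it was 5 (Hspb1 0.0606, Hspa8 0.263). With no filter on low values 0 members passed, and 4 genes of the whole table did.

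Telogen and fed libraries also differed in other ways. The telogen libraries were trimmed with Trimmomatic 0.39 and the fed ones with fastp 0.23.1, per the submitters' processing notes, so trimming and group cannot be told apart. Markers of 6 immune genes summed to between 49.6 and 53.6 TPM in telogen against 11.6 to 15.6 TPM in fed HFSCs, with Cd3e and Ptprc at 0 in both. Those of 6 fibroblast genes summed to between 37.8 and 42.6 TPM against 10.8 to 22.7 TPM, and those of 4 erythroid genes to between 91.6 and 163 TPM against 4.62 to 34.1 TPM. The mitochondrial share was 3.46% ± 0.0531 against 30.7% ± 4.56. Of 24 immediate early genes 19 were higher in telogen and 0 lower, led by Cebpb (7.82), Fosl1 (6.49) and Jund (3.96). The share of all genes called higher was 5.01%. After scaling 15 immediate early genes were called higher and 0 lower, with 5.55% of all genes called higher. The part of these differences in the chaperone result was not tested.

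Among the other chaperone lists few genes were called in telogen, where 5.01% of all genes were called higher, or 5.55% after scaling. Of 28 J-domain genes 1 rose (Dnajb4, 1.56, adjusted p = 0.0268), of 24 co-chaperones 1 rose (Bag3, which joins HSP70 to Hspb8, from 23.1 ± 4.23 to 59.2 ± 4.41 TPM, 1.33, adjusted p = 0.0465), and 0 fell in either list. Of 10 other heat-inducible genes 4 rose, among them Ier5, which assists HSF1 (2.90, adjusted p = 0.000329), and 2 of the 10 were called higher after scaling. On the deposited scale no gene was called among 7 other HSP70 and HSP110 genes, 5 other small heat shock proteins, 8 chaperonins, 2 HSP90 genes outside the cytosol and 4 factors and regulators, where Hsf1 was at 0.24 (adjusted p = 0.851). After scaling 1 of the other HSP70 and HSP110 genes was called higher. The median was 1.13 for the heat-inducible genes, and those of the other lists ran from -0.34 to 0.31. Stip1 (0.45), Hspe1 (0.67) and Fkbp5 (-0.17) were not called.

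After 6 months on alternate-day fasting none of the 10 genes was called against fed controls, and limma called 1 gene of the whole table (0.00822%), or 1720 genes at an unadjusted p under 0.05, 0 of them members. Hsp90aa1 differed most, at 918 and 1253 TPM with ADF against 2102 and 1358 TPM in fed mice (-0.66, SE 0.294, 95% interval -1.35 to 0.04, adjusted p = 0.374). Both ADF libraries lay below both fed ones, the only member to do so, against 21.0% of all genes. Hsp90ab1 lay slightly higher at 593 and 663 TPM against 499.9 and 511 TPM (0.31, adjusted p = 0.491), and Dnaja1 at 285 and 199 TPM against 175 and 199 TPM (0.35, adjusted p = 0.518). These were the 2 members higher without overlap, against 29.6% of all genes. The log2 ratio of Hsp90aa1 to Hsp90ab1 was 0.77 ± 0.204 with ADF and 1.74 ± 0.468 in fed mice (n = 2 each), a difference of -0.97 without overlap (exact two-sided permutation p = 0.333, the smallest possible, adjusted 0.421).

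Hspa1a and Hspb1, called after 48 h of fasting, were not called after 6 months of ADF. Hspa1a measured 384 and 583 TPM with ADF and 489 and 364 TPM in fed controls (0.17, 95% interval -0.49 to 0.82, adjusted p = 0.786). Hspb1 measured 5316 and 3820.4 TPM and 5062 and 3442 TPM (0.11, 95% interval -0.64 to 0.86, adjusted p = 0.876). The groups overlapped in both genes, and these intervals still include changes as large as 0.82 and 0.86 on the log2 scale. Hspa8 measured 2001 and 2565 TPM against 3105 and 2356 TPM, Hspd1 92.9 and 120.5 TPM against 145 and 119 TPM, Hsph1 16.7 and 26.7 TPM against 40.3 and 26.5 TPM, and Dnajb1 810.3 and 701 TPM against 945 and 727 TPM. Hspa1b measured 21.6 and 40.9 TPM against 46.5 and 24.4 TPM. All 5 overlapped between groups, with log2 fold changes from -0.61 (Hsph1) to -0.14 (Dnajb1) and adjusted p from 0.458 to 0.853. Markers of 6 immune genes summed to 67.0 to 106 TPM with ADF and 142 to 173 TPM in the fed controls, and their part in these values was not tested. Among the other chaperone lists 0 genes were called, with Bag3 at 0.87 (adjusted p = 0.289) and Fkbp5 at 29.6 ± 16.8 TPM against 9.99 ± 1.24 TPM (adjusted p = 0.286).

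**Figure D4:**
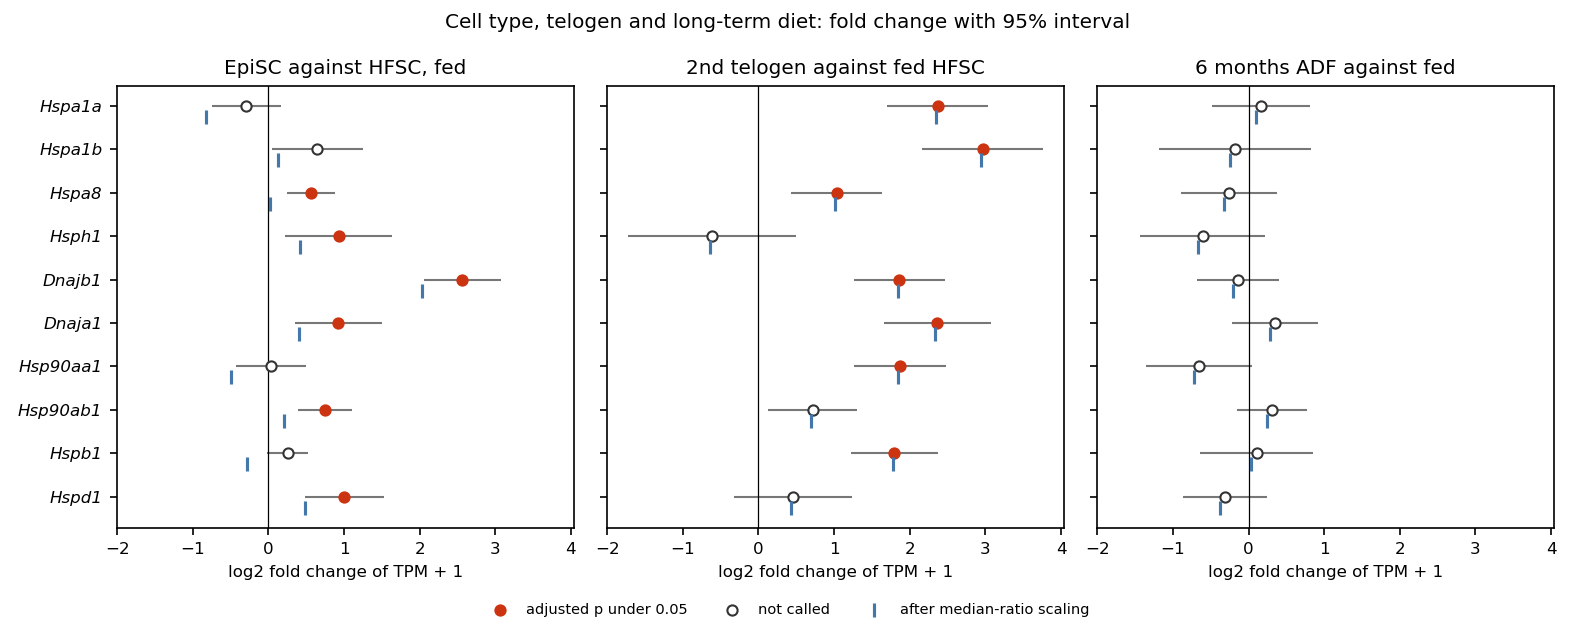
The log2 fold change of TPM + 1 (linear axis) with its 95% interval is given for EpiSCs against HFSCs, telogen against fed HFSCs and 6 months of ADF against fed, with symbols as for the short fast. Dnajb1 at 2.56 stands apart in EpiSCs, 7 members are filled in telogen, and every interval of the ADF panel includes 0.

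The base composition of transcripts moved with the fold changes in some comparisons. With genes split into 10 equal bins of GC content, the median of the lowest and of the highest bin went from -0.30 to 0.50 for ADF against fed and from -0.31 to 0.34 for telogen, but from 0.50 to 0.36 for 48 h against fed. The transcripts of the 10 genes held between 44.5% (Dnaja1) and 61.2% GC (Hspb1), with Hspa1a at 58.9%, above 91.7% of genes. After the GC trend was removed Hspa1a remained called at 48 h (1.24, adjusted p = 0.0121) and in telogen (2.11, adjusted p = 0.00578), while Hspb1 was not (0.65, adjusted p = 0.0730 at 48 h, and 1.43, adjusted p = 0.123 in telogen). Dnaja1, with the lowest GC content of the 10, was at 2.47 in telogen (adjusted p = 0.000709). For ADF the value of Hspa1a turned from 0.17 to -0.31 and that of Hsp90aa1 stayed at -0.67.

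**Figure D5:**
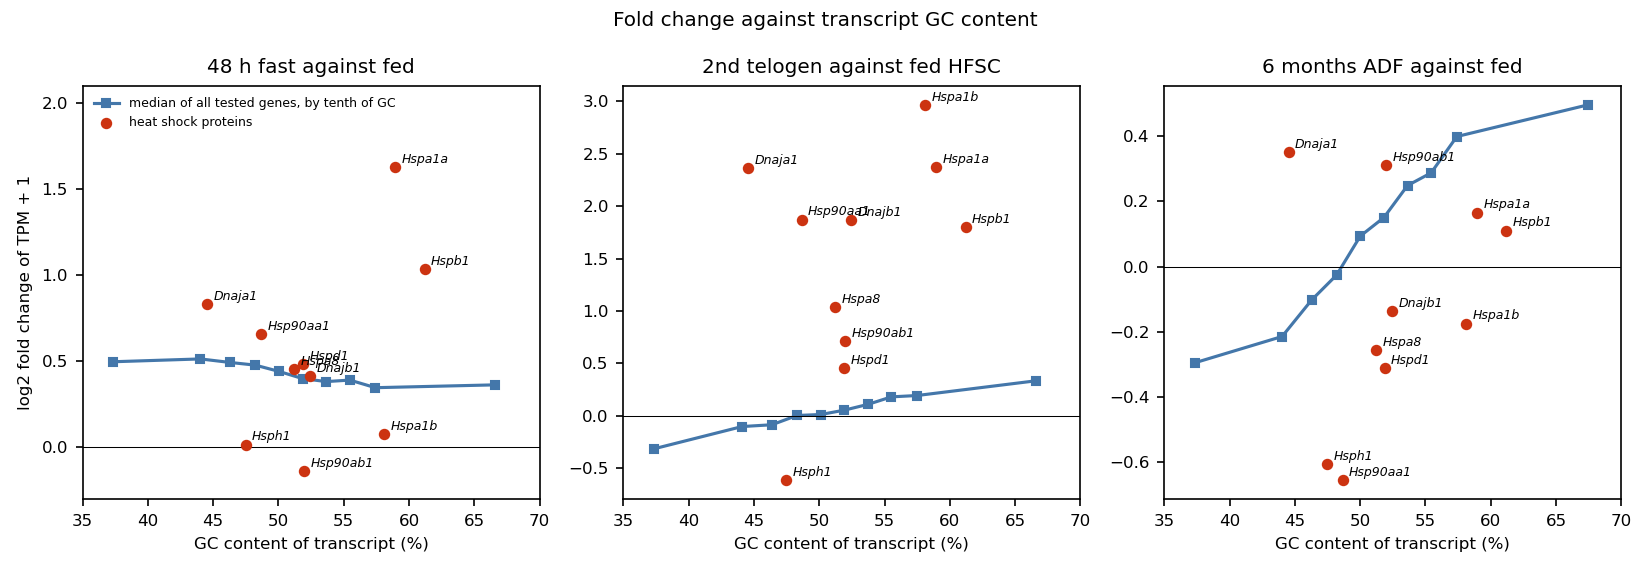
The log2 fold change of TPM + 1 is plotted against the GC content of the transcript in percent for 3 comparisons, with squares for the median of all tested genes in each of 10 GC bins and red points for the 10 genes. The squares climb from -0.30 to 0.50 for ADF and change little at 48 h, where Hspa1a (1.63) and Hspb1 (1.04) lie above them.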

How the data were processed

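RNA-seq libraries of sorted mouse skin stem cells were analysed from 3 tables of TPM values that the authors deposited, 1 each for the short experiment, the long-term experiment and telogen with fed libraries 2 and 3. Per the submitters' processing notes the tools were Salmon 1.4.0, DESeq2 1.36.0, fastp 0.23.1 (short experiment) and Trimmomatic 0.39 (long-term and telogen), with build mm10; their roles are not given. Extraction and amplification of full-length cDNA from few cells, per the labels' protocols, can add spread at low levels. Read depth is unknown, so no counting error is given. The fed columns repeated in the telogen table were identical to those of the short experiment in 35674 of 35674 genes within 1e-06 and were counted once. ADF libraries were grouped by title, although their treatment field says ad libitum. EpiSC libraries are numbered 1 and 2 by title, while their columns carry 2 and 3.

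Genes with a mean of at least 1 TPM were tested on log2(TPM + 1), which understates the change of low genes, with limma 3.58.1 (trended empirical Bayes) in R 4.3.3. The fed and fasted HFSC groups of the short experiment shared 1 fit, and other comparisons used their own groups. Adjusted p-values are Benjamini-Hochberg over all tested genes, with a threshold of 0.05. Scripts ran in Python 3.11.15 and were tested on simulated data. Alternatives were median-ratio scaling, quantile normalization, no low-value filter, other pseudocounts, leaving out mitochondrial and ribosomal protein genes, a replicate block, each library left out, and, added after seeing the data, GC adjustment and a block by column numbers for EpiSCs. Genes named outside the 10 members are, per list and comparison, the 3 called genes with the largest change plus Hsf1, Hsf2, Hspe1, Bag3, Stip1 and Fkbp5; others were chosen after their values were seen. A result that the rule would name is not reported here. The members and lists were chosen with earlier results of these data known.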

Additional observations from a re-analysis of the deposited data

Results flagged for a closer look

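The log2 fold change of Hsp90aa1 against fed controls had opposite signs in the 2 fasting schemes. It was 0.66 after 48 h of fasting, beside a median of 0.42 for all genes. All 3 fasted libraries lay above all 3 fed ones, as for 35.5% of genes. With 6 months of ADF it was -0.66, beside a median of 0.09. Both ADF libraries lay below both fed ones, as for 21.0% of genes. The values to 3 digits were 0.657 and -0.656. After median-ratio scaling they were 0.16 and -0.73, and after GC adjustment 0.18 and -0.67, so their sizes were alike on the deposited scale alone of these 3. Neither was called by limma (adjusted p = 0.0703 and 0.374). The difference between the schemes was not tested, since their libraries stand in separate tables.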

How the results depend on the processing

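Hspa1a at 48 h against fed and Dnajb1 in EpiSCs were called under every alternative run. Depth is unknown, so low genes such as Hsph1 and Hspa1b have no counting error. The number of members called at 24 h was 1 after median-ratio scaling, quantile normalization, leaving out mitochondrial and ribosomal protein genes or GC adjustment (which was added after seeing the data). At 48 h it was 1 with no filter and after GC adjustment, and 5 with only the compared groups. In EpiSCs it was 2 under all 4 rescalings, and in telogen 0 with no filter. With 1 library left out the count ran from 0 to 2 at 24 h, 1 to 4 at 48 h, 0 to 1 for 48 h against 24 h, 1 to 6 in EpiSCs and 1 to 5 in telogen; where a group then held 1 library, that library was assumed to vary like the others. The cause of these changes was not tested.

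Directions turned for members that were mostly not called. After median-ratio scaling the 48 h values against fed were -0.40 (Hspa1b), -0.042 (Hspa8), -0.45 (Hsph1), -0.083 (Dnajb1) and -0.0059 (Hspd1). Those against 24 h were -0.26 (Dnajb1), -0.025 (Hsp90aa1), -0.41 (Hsp90ab1) and -0.30 (Hspb1), and those of EpiSCs -0.50 (Hsp90aa1) and -0.28 (Hspb1). After quantile normalization they were -0.43 (Hspa1b), -0.020 (Hspa8) and -0.49 (Hsph1) at 48 h, -0.12 (Dnajb1) and -0.28 (Hsp90ab1) against 24 h, and -0.11 (Hspa8), -0.49 (Hsp90aa1) and -0.21 (Hspb1) in EpiSCs. Without mitochondrial and ribosomal protein genes they were -0.30 (Hspa1b) and -0.35 (Hsph1) at 48 h, -0.10 (Dnajb1), -0.25 (Hsp90ab1) and -0.14 (Hspb1) against 24 h, and -0.43 (Hsp90aa1) and -0.21 (Hspb1) in EpiSCs. After GC adjustment they were -0.31 (Hspa1b) and -0.47 (Hsph1) at 48 h, -0.21 (Dnajb1), -0.0012 (Hsp90aa1), -0.35 (Hsp90ab1) and -0.22 (Hspb1) against 24 h, -0.0096 (Hspa8), -0.51 (Hsp90aa1) and -0.45 (Hspb1) in EpiSCs, and -0.31 (Hspa1a) and -0.42 (Hspb1) for ADF.

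With 1 library left out, values crossed 0 for Hspa1a (-0.14 to 0.47), Hspa1b (-0.63 to 0.28), Dnajb1 (-0.33 to 0.052), Hspb1 (-0.17 to 0.39) and the ratio of Hspd1 to Hspe1 (-0.55 to 0.073) with ADF. At 48 h this held for Hspa1b (-0.33 to 0.45) and Hsph1 (-0.21 to 0.40), and at 24 h for Dnaja1 (-0.042 to 0.55) and Hsp90aa1 (-0.0011 to 0.38). It held for Hspa8 (-0.12 to 0.054), Hsp90ab1 (-0.086 to 0.20), Hspb1 (-0.021 to 0.39) and the Hspd1 to Hspe1 ratio (-0.011 to 0.54) at 48 h against 24 h, for Hsp90aa1 in EpiSCs (-0.16 to 0.15) and for that ratio in telogen (-0.76 to 0.34). Kept apart from the summed copies, Hspa1b stood at 0.078 at 48 h, -0.44 against 24 h, 0.65 in EpiSCs and -0.17 with ADF. The share of the members without mitochondrial transcripts was 0.727% in fed HFSCs, 1.07% at 24 h, 0.974% at 48 h, 0.789% in EpiSCs and 1.06% with ADF.

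Libraries with the same replicate number did not deviate together (correlations from -0.13 to 0.05). With 2 or 3 libraries in a group, each centred on its mean, this check cannot decide whether the numbers pair them. With the replicate block the members called were 0 at 24 h, 2 at 48 h, 0 for 48 h against 24 h, 6 in EpiSCs and 0 with ADF, and Hsp90aa1 in EpiSCs turned to -0.16. EpiSC columns carry the numbers 2 and 3 where the titles have 1 and 2. A block by column numbers, added after seeing the data, also called 6, with Hspa1b (0.81, adjusted p = 0.0398) in place of Hsph1 (0.78, adjusted p = 0.0982), and left Hsp90aa1 at 0.12.

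Over all genes the block moved the ADF count from 1 to 284 and that of 48 h against 24 h from 5 to 19. The 354 genes called at 24 h became 564 after median-ratio scaling, 539 without mitochondrial and ribosomal protein genes, 704 after quantile normalization, 583 after GC adjustment, 179 with only the compared groups and 61 with no filter. They were 99 without fed library 1, 215 without fed 2, 151 without fed 3 and 220 without 48 h library 2. The 1765 at 48 h became 1160 without mitochondrial and ribosomal protein genes, 918 with no filter and 2880 with only the compared groups. They were 748 without fed library 1, 885 without fed 3, and 1053, 749 and 744 without 48 h library 1, 2 or 3. The 5 at 48 h against 24 h ranged from 0 to 345, with 172 without 24 h library 1 and 345 without 24 h library 3. The 4782 in EpiSCs were 1253 without EpiSC library 1 and 1367 without library 2. The 709 in telogen were 4 with no filter, 29 without telogen column 2, 77 without column 3 and 352 without fed library 3, so the share of all genes set beside the members moves with them. The 1 with ADF ranged from 0 to 16 with a library left out.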
